A study of Bos taurus with 40 samples.

Results

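The genes described here code for the hormones of the anterior pituitary gland. They were chosen by name, as the genes GH1, PRL, POMC, CGA, FSHB, LHB and TSHB, and all 7 were found among the 13570 genes of the count tables and among the 13148 genes with at least 1 read that were tested. In the RefSeq annotation of cattle their gene identifiers are 280804 (GH1), 280901 (PRL), 281416 (POMC), 280749 (CGA), 281171 (FSHB), 280839 (LHB) and 281552 (TSHB).

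The anterior pituitary makes its peptide hormones in separate cell types. Somatotrophs make growth hormone from GH1, lactotrophs make prolactin from PRL, and corticotrophs make the precursor of adrenocorticotropic hormone from POMC, which the melanotrophs of the intermediate lobe also use for melanocyte-stimulating hormone. Thyrotrophs and gonadotrophs make glycoprotein hormones, each a pair of a common alpha subunit, coded by CGA, and a beta subunit that gives the hormone its identity: TSHB for thyroid-stimulating hormone, FSHB for follicle-stimulating hormone and LHB for luteinizing hormone. Hypothalamic peptides and dopamine control their release through receptors on these cells, and steroids from the gonads feed back on the gonadotrophs.

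RNA was sequenced from the pituitary gland, liver, abdominal fat and longissimus dorsi muscle (a muscle of the back) of 10 Korean cattle, a beef breed, with 1 library per animal and tissue. The animals were 5 cows and 5 bulls, with no treatment named in the labels, slaughtered at an age over 22 months, and each animal is given by its sex and a number from 1 to 5. Whether the bulls were intact, the stage of the cows' cycle, any pregnancy and the hour of sampling are not given in the sources used here. The pituitary sample is labelled as gland, with no lobe named, and the study compared the sexes within and across tissues.

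Between 5173092 and 19165864 reads per library were counted on genes, and between 9196932 and 19165864 in the 10 pituitary libraries. Levels are counts divided by library size in CPM units (reads of a gene per 1e+06 reads on genes) scaled with TMM factors, and 3 reads, the lowest level relied on, correspond to 0.157 to 0.580 CPM by library size. Transcript lengths were not used, so levels are tested between samples of 1 gene and not between genes. Where genes of a list are named by highest level or summed, this is a description that depends on transcript length as well. The liver library of bull 3 held 1400.8 CPM of XIST, an RNA of the inactive X chromosome, against 680.6 to 2179 CPM in the cows' livers and at most 0.936 in those of the other bulls, and had no read of the Y-linked genes DDX3Y, USP9Y and ZFY. This library goes against its label, and the calls of hormone genes that use it are given with and without it. In the pituitary libraries XIST and the Y-linked genes matched the labels in all 10 animals. The pituitary library of bull 5 stood apart from the other bulls in most hormone genes, and its values are given at each result.

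The hormone genes took a large part of the reads of every pituitary library. Together they held 14.1% to 33.4% of the gene reads in cows and 22.4% to 35.4% in bulls, against at most 0.0313% in any library of another tissue. PRL had the most reads of all genes in 10 of 10 glands and GH1 the second most in 7. PRL held 10.9% to 27.6% of the gene reads in cows and 10.5% to 26.9% in bulls, GH1 1.13% to 4.63% over the 10 glands and POMC 0.712% to 9.13%. The glycoprotein subunits had smaller shares. CGA took 0.201% to 1.72%, FSHB 0.00854% to 0.220%, TSHB 0.0234% to 0.141% and LHB 0.00460% to 0.0360%. These shares depend on transcript length as well as abundance, and poly-A selected RNA of a whole piece of gland cannot tell fewer cells of a type from less RNA per cell.

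**Figure D1:**
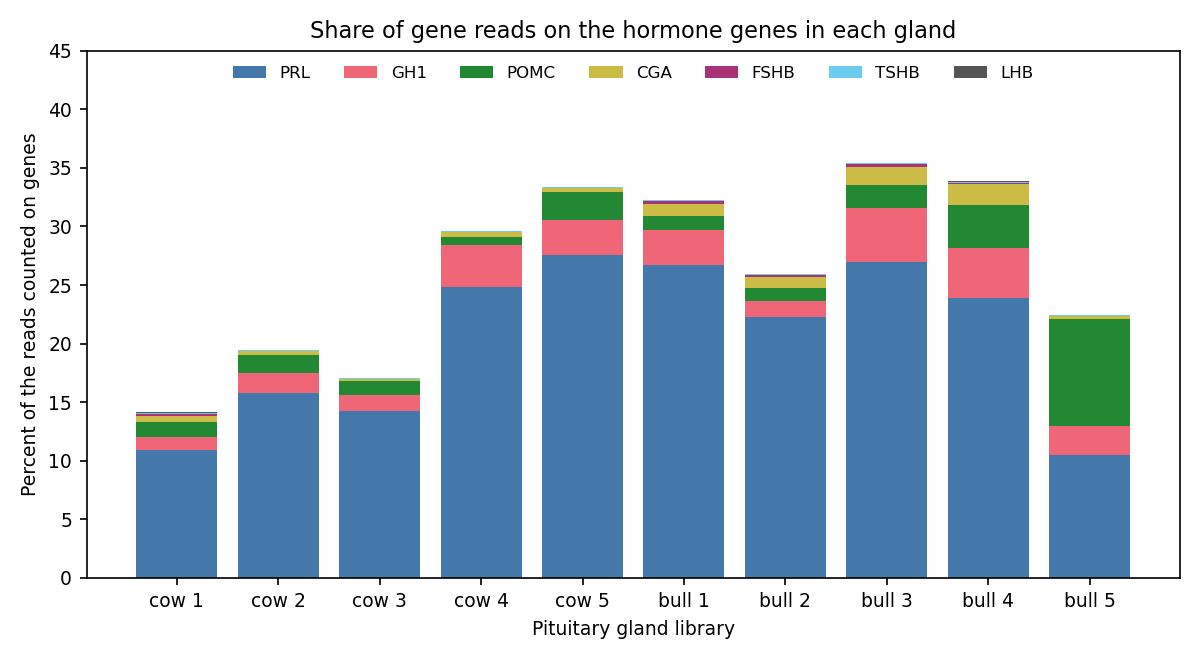
Percent of the reads counted on genes (vertical axis) that fell on each of the 7 hormone genes in the pituitary gland libraries of 5 cows and 5 bulls (horizontal axis), 1 stacked bar per gland. The bars reach 14.1% to 35.4%, PRL forms the largest segment in every gland, and bull 5 has the smallest PRL segment of the bulls and the largest POMC segment of all glands.

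All hormone genes were far higher in the pituitary gland than in the other tissues. With edgeR's likelihood ratio test (LRT) on the 40 libraries, 7 of 7 were called higher in the gland (Benjamini-Hochberg adjusted p of 2.93e-107 or less), where 33.9% of the 13148 genes were called higher and 66.0% were called in either direction. The log2 differences between the gland and the mean of liver, fat and muscle lay between 10.02 and 10.95. POMC was at 10.02 ± 0.32, GH1 at 10.82 ± 0.44, PRL at 10.94 ± 0.40 and CGA at 10.75 ± 0.39 (SE, 40 libraries). TSHB, FSHB and LHB were at 10.54, 10.95 and 10.71, but reached 3 reads in 19, 16 and 2 of the 30 libraries of other tissues, so that their differences rest on counts below the floor. No order of the genes was tested. The median over the 7 genes was 10.75, and over all genes tested -0.01. The call held for 7 of 7 genes in cows alone, in bulls alone, with the animal as a block, without the liver of bull 3 and without each animal in turn. With library sizes alone in place of TMM factors, the median of all genes moved up by 0.61 and the median of the hormone genes to 11.37.

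**Figure D2:**
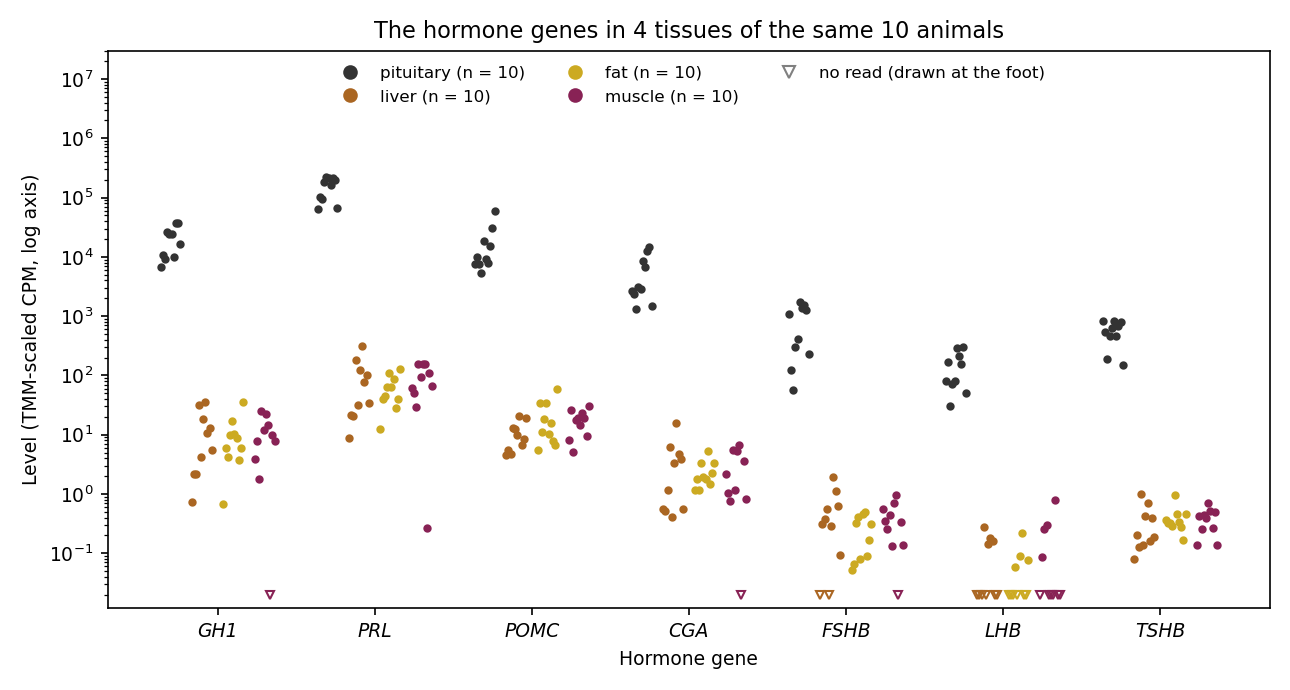
Levels of the 7 hormone genes (TMM-scaled CPM, log axis) in pituitary gland, liver, fat and muscle of the same 10 animals, 1 point per library. Open triangles at the foot mark libraries without a read. The pituitary values of each gene lie above all values of the other tissues.

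The genes that the hormone-producing cells use to build and pack their hormones were also higher in the gland. Each call here is against the mean of liver, fat and muscle, by which 33.9% of all genes were higher in the gland. Of 10 measured genes of secretory granules and hormone processing, 10 were higher in the gland. SCG2, CHGB and CHGA, which code for granins, the acidic proteins of the granule core, had the highest levels of this list in the gland, at 7326 ± 1997, 2282 ± 525 and 1759 ± 225 CPM (SD, n = 10), with log2 differences of 10.50, 10.90 and 10.90. Of 15 transcription factors of the pituitary lineages, 15 were higher in the gland than this mean. However, PITX1 was highest in muscle (180 CPM against 133 in the gland), and GATA2 was nearly as high in fat (20.1 against 20.5 CPM). EGR1 and NR4A1, immediate early genes, had the highest levels there (783 and 456 CPM) but were also high in fat (454 and 137 CPM) and muscle (258 and 325 CPM). LHX3, a homeobox factor of the gland, was at 148 ± 36.0 CPM in it and at most 0.215 CPM on average elsewhere. Of 13 measured receptors for hypothalamic and feedback signals, 10 were higher in the gland and 1, the glucocorticoid receptor NR3C1, was lower. DRD2, the dopamine receptor of lactotrophs, was at 467 ± 137 CPM, GHRHR, the receptor of growth hormone-releasing hormone, at 128 ± 40.05 and GNRHR, the receptor of gonadotropin-releasing hormone, at 63.6 ± 39.0 CPM (SD, n = 10).

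CGA was the hormone gene that was called between the sexes in the pituitary gland. Its level was 2619, 2380, 1339, 3053 and 2840 CPM in cows 1 to 5 and 8418, 6657, 12625, 14537 and 1465 CPM in bulls 1 to 5. Bulls 1 to 4 each lay above all cows, while bull 5 lay below 4 of the 5 cows. The mean was 2446 ± 668 CPM in cows and 8741 ± 5150 CPM in bulls (SD, n = 5 each), 3.57 times as high in bulls. The log2 fold change of bulls to cows was 1.84 ± 0.44 (SE), with an adjusted p of 0.0125 in the edgeR LRT. In this test 0.745% of all genes were called in either direction and 0.555% higher in bulls, and 1 of the 7 hormone genes was called. At an unadjusted p under 0.05 there were 4 of the 7 and 1219 of all genes.

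The call of CGA depended on the test and on single animals. With edgeR's quasi-likelihood test, which calls 12 genes in place of 98, the adjusted p of CGA was 0.242, and with DESeq2 it was 0.00499. Without cow 2, cow 3, bull 3 or bull 4 the adjusted p of the LRT rose to between 0.0621 and 0.0750, and without bull 5 it fell to 1.24e-09, with a log2 fold change of 2.11. Reads that the counting placed outside any annotated gene were set over the sum of these and the reads on genes, named or unnamed, with multimapped reads left out. This share, given here as reads outside genes, was 35.4% to 52.2% in cows and 33.3% to 47.0% in bulls, and it moved with the level of CGA. Hormone reads are part of that sum, so the share falls by arithmetic where they rise. With this share as a covariate, a fit chosen after the data were seen, the log2 fold change of CGA was 0.97 and its adjusted p was 0.617. The covariate also moved LHB from 1.25 to 0.62 and GH1 from 0.69 to 0.13. The share contains the hormone reads. Of the gene reads of a gland, PRL held up to 27.6%, GH1 up to 4.63%, CGA up to 1.72% and LHB up to 0.0360%. How much of these shifts is built in was not tested, and the fit cannot separate the covariate from the levels.

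FSHB, the beta subunit of the hormone that drives follicles and spermatogenesis, was at 1108, 122, 56.9, 304 and 404 CPM in cows 1 to 5. In bulls 1 to 5 it was at 1763, 1364, 1539, 1273 and 232 CPM. Bulls 1 to 4 lay above all cows, of which cow 1 came nearest to them, and bull 5 was within the range of the cows. The log2 fold change was 1.63 ± 0.62 (SE, adjusted p = 0.297, edgeR LRT), the second largest of the hormone genes, and did not pass the threshold. Without cow 1 it was 2.47, with an adjusted p of 0.0148. Without bull 5, CGA and FSHB were the hormone genes in which the sexes did not overlap, among 2.86% of all genes, and with all 10 glands no hormone gene was, against 1.34% of all genes.

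LHB, the beta subunit of the hormone that triggers ovulation and testosterone synthesis, was at 79.1, 165, 30.7, 71.3 and 79.2 CPM in cows 1 to 5 and at 287, 210, 159, 304 and 50.4 CPM in bulls 1 to 5. Bulls 1, 2 and 4 were above every cow, bull 3 was just under cow 2, and bull 5 was above cow 3 alone. The log2 fold change was 1.25 ± 0.44 (SE, adjusted p = 0.206, edgeR LRT) and the adjusted p was 0.0110 without bull 5.

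TSHB, the beta subunit of the hormone that drives the thyroid, was at 825.5, 549, 191, 456 and 633 CPM in cows 1 to 5 and at 825, 469, 688, 792 and 150 CPM in bulls 1 to 5. The ranges of the sexes covered each other almost fully, with the lowest value in bull 5. The log2 fold change was 0.15 ± 0.41 (SE, adjusted p = 0.940, edgeR LRT), the smallest of the hormone genes, and its sign turned with library sizes alone (-0.09) and with the share of reads outside genes as a covariate (-0.53).

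**Figure D3:**
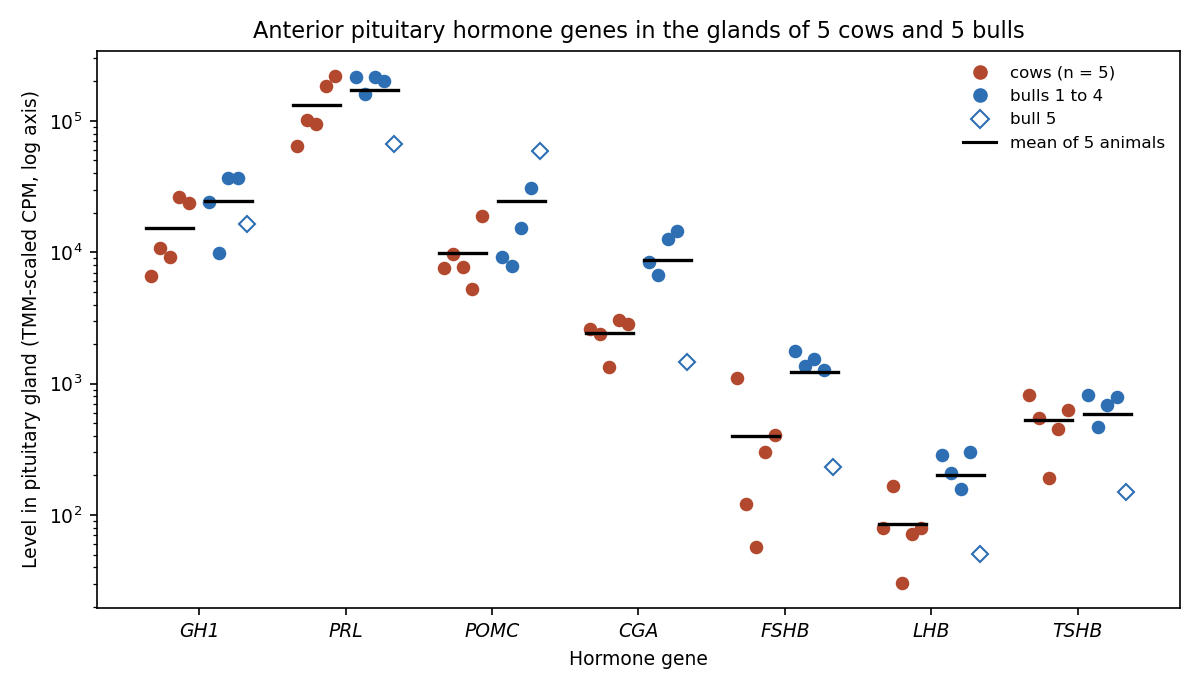
Level of each hormone gene (TMM-scaled CPM, log axis) in the pituitary glands of 5 cows and 5 bulls, 1 point per gland, with the mean of each sex as a bar and bull 5 as an open diamond. In CGA and FSHB bulls 1 to 4 lie above all cows, the sexes overlap in all genes when bull 5 is counted, and bull 5 is the lowest bull in every gene except GH1 and POMC.

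PRL, whose hormone supports lactation, was at 63894, 101655, 95007, 183547 and 219240 CPM in cows 1 to 5 and at 213856, 159945, 214481, 201510 and 67047 CPM in bulls 1 to 5. The highest value was a cow's and the 2 lowest were those of cow 1 and bull 5. The log2 fold change was 0.37 ± 0.37 (SE, adjusted p = 0.757, edgeR LRT). GH1, whose hormone drives growth, was at 6616, 10715, 9264, 26188 and 23843 CPM in cows 1 to 5 and at 24088, 9850, 36810, 36695 and 16361 CPM in bulls 1 to 5. Bulls 3 and 4 were above all cows and cows 1 and 3 below all bulls, and the other 6 animals overlapped. Its log2 fold change was 0.69 ± 0.43 (SE, adjusted p = 0.638, edgeR LRT).

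POMC was at 7630, 9782, 7721, 5263 and 18737 CPM in cows 1 to 5 and at 9127, 7820, 15421, 30940 and 58536 CPM in bulls 1 to 5. Each bull lay above the median cow, but bulls 1, 2 and 3 lay within the range of the cows. The log2 fold change was 1.31 ± 0.49 (SE, adjusted p = 0.280, edgeR LRT) and 0.70 at the lowest when single animals were left out. Of the 7 hormone genes, the median log2 fold change between the sexes in the gland was 1.25, and over all genes tested it was 0.00. It was 0.81 without bull 5 and 0.62 with the covariate.

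The gland of bull 5 had 4.77 times the median POMC level of the other bulls, and 0.139 to 0.538 times their median of the other hormone genes. Its lowest ratio was that of CGA, and its highest below 1 was that of GH1. PCSK2, the convertase that cuts POMC products further in melanotrophs, was at 414 CPM in this gland, against 11.8 to 127 CPM in the other 9, and TBX19, a factor of the POMC-expressing lineages, at 226 CPM against 47.7 to 106 CPM. POU1F1, a factor of the lineages that make GH1, PRL and TSHB, was at 26.7 CPM, below the 33.1 to 101 CPM of the other glands. Of the neural lobe markers, LHX2 and NKX2-1 were at 18.9 and 11.9 CPM, against at most 6.34 and 2.67 CPM in the other glands. GFAP, AQP4 and SLC1A3, glial genes of the same list, were at 47.5, 32.6 and 34.1 CPM, within the range of the other glands (up to 55.2, 41.4 and 60.5 CPM), and the sum of the list was 147 CPM, below the 155 CPM of cow 1. AVP and OXT, which code for the hormones of the neural lobe, were at 1.11 and 0.717 CPM there and at most 1.23 and 0.958 CPM in the others. The stromal collagen gene COL1A1 was at 389 CPM against 48.5 to 153 CPM. The part of these cell types in the levels of bull 5 was not tested.

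The beta subunits need CGA to form a hormone, and reads of 2 genes in the same library can be compared without a normalization factor. TSHB had 31.5, 23.1, 14.3, 14.9 and 22.3 reads per 100 CGA reads in cows 1 to 5 and 9.80, 7.04, 5.45, 5.45 and 10.3 in bulls 1 to 5. All cows were above all bulls, bull 5 included. The mean level in bulls was 1.10 times that in cows for TSHB and 3.57 times for CGA. The difference in this ratio is therefore not independent of that in CGA given above. The mean ratio was 2.77 times as high in cows (log2 difference of bulls to cows -1.47), with a two-sided exact permutation p of 0.00794, the smallest that 5 against 5 animals can give, and an adjusted p of 0.0397 over 5 ratios. Leaving out each animal in turn gave log2 differences between -1.60 and -1.31, all with an adjusted p of 0.0397, which is the smallest that 4 against 5 animals can give and so does not measure stability. With medians in place of means the log2 difference was -1.66 and the adjusted p 0.238. Over the 10 glands the log2 ratio had r = 0.52 with the share of reads outside genes (permutation p = 0.120, rho 0.54, permutation p = 0.113, r = 0.37 without the 2 glands farthest from the median share), a relation computed after the values were seen. The part of this share in the difference between the sexes was not tested.

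The other ratios overlapped between the sexes. FSHB had 4.25 to 42.3 reads per 100 CGA reads in cows and 8.76 to 20.9 in bulls, and LHB had 2.29 to 6.94 in cows and 1.26 to 3.44 in bulls. The log2 differences of bulls to cows were 0.50 and -0.34, with adjusted p of 0.492 each (exact permutation test). LHB had 7.14 to 136 reads per 100 FSHB reads in cows, with cow 1 lowest and cow 2 highest, against 10.3 to 23.8 in bulls. GH1 had 9.75 to 14.3 reads per 100 PRL reads in cows and 6.16 to 24.4 in bulls, with the highest value in bull 5. The log2 differences of these ratios were -0.83 and 0.34, again with adjusted p of 0.492 in the exact permutation test, and the standard deviation of the log2 ratio of GH1 to PRL was 0.21 in cows and 0.77 in bulls.

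**Figure D4:**
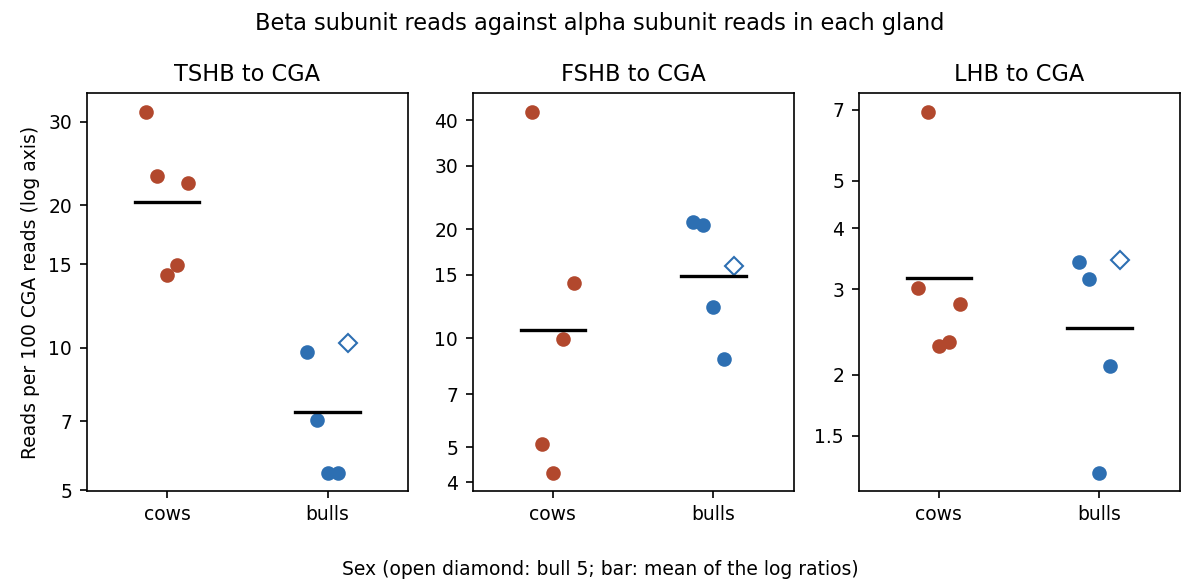
Reads of TSHB, FSHB and LHB per 100 CGA reads (log axes) in the pituitary glands of 5 cows and 5 bulls, 1 point per gland, with bars at the mean of the log ratios and bull 5 as an open diamond. TSHB to CGA runs from 14.3 to 31.5 in cows and from 5.45 to 10.3 in bulls, while the other ratios overlap.

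Levels of 2 of the 6 pairs of glycoprotein subunits were correlated from gland to gland. Over the 10 glands, Pearson's r of log2 levels was 0.86 for CGA and LHB (permutation adjusted p = 0.0401 over 21 pairs, Spearman's rho 0.78, adjusted p = 0.108) and 0.83 for CGA and FSHB (adjusted p = 0.0435, rho 0.85, adjusted p = 0.0582). Without the 2 glands farthest from the median of CGA, r was 0.89 and 0.84. By Spearman's rho no pair passed, by Pearson's r no other pair did, and with library sizes alone neither did these. The other 4 pairs of glycoprotein subunits had r between 0.70 and 0.73. GH1 and PRL had r = 0.77 (permutation adjusted p = 0.0589, r = 0.60 without the 2 farthest glands), and the 6 pairs of POMC with other members had r between -0.28 and 0.38, and between 0.31 and 0.58 without bull 5. Centred within each sex, as a description, r was 0.89 for CGA and TSHB, 0.88 for FSHB and TSHB, 0.86 for LHB and TSHB, 0.78 for CGA and LHB, 0.72 for CGA and FSHB and 0.58 for FSHB and LHB, all of which include the low values of bull 5.

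The share of reads outside genes followed the hormone genes. Over the 10 glands, PRL fell with this share (r = -0.91, permutation adjusted p = 0.00588 over 7 genes, rho -0.85, adjusted p = 0.0103), as did GH1 (r = -0.86, adjusted p = 0.0112, rho -0.81, adjusted p = 0.0161) and CGA (r = -0.80, adjusted p = 0.0191, rho -0.85, adjusted p = 0.0103). Without the 2 glands farthest from the median share, r was -0.92, -0.77 and -0.75. LHB had r = -0.68 (adjusted p = 0.0578) and rho = -0.75 (adjusted p = 0.0304), with r = -0.47 without the 2 farthest glands. FSHB and TSHB had r of -0.66 and -0.61 (adjusted p of 0.0580 and 0.0732), and -0.74 and -0.76 without these glands. POMC had r = -0.18 (adjusted p = 0.612), and 0.11 without them. The hormone reads are among the reads over which the share is taken, and how much of these negative relations is built in was not tested. In the other tissues hormone reads were at most 0.0313% of the gene reads. There the share was 34.9% to 54.3% in liver, 34.7% to 47.1% in fat and 35.9% to 53.4% in muscle. The share outside genes and the levels come from the same libraries, and whether RNA quality moved with the share was not tested.

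Among the other genes of the pituitary lineages, 2 of 15 transcription factors were called higher in bulls, and none lower, by the edgeR LRT. This test called 0.745% of all genes in either direction and 0.555% higher in bulls. FOXL2, a forkhead factor of gonadotrophs that acts on FSHB, was at 3.22 to 4.79 CPM in cows, 8.63 to 11.7 in bulls 1 to 4 and 4.63 in bull 5, with a log2 fold change of 1.23 ± 0.29 (SE, adjusted p = 0.00710). NR5A1, the steroidogenic factor of gonadotrophs, was at 37.8 to 61.9 CPM in cows, 65.6 to 101 in bulls 1 to 4 and 56.5 in bull 5, with a log2 fold change of 0.77 ± 0.21 (SE, adjusted p = 0.0441). In both genes bulls 1 to 4 lay above the cows and bull 5 within their range, as in CGA. With bull 5 left out, the sexes did not overlap in 2.86% of all genes. With the quasi-likelihood test their adjusted p was 0.143 and 0.242, and with the LRT without bull 5 it was 3.29e-06 and 0.00657. The median log2 fold change of the list was 0.34.

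Of 13 measured receptors for hypothalamic and feedback signals, 1 was called in the gland by the edgeR LRT, against 0.745% of all genes. TRHR, the thyrotropin-releasing hormone receptor of thyrotrophs and lactotrophs, was lower in bulls, at 12.5 to 39.3 CPM in cows, 5.82 to 20.9 in bulls 1 to 4 and 9.59 in bull 5 (log2 fold change -1.39 ± 0.38, adjusted p = 0.0394 in the edgeR LRT, 0.248 with the quasi-likelihood test and 0.106 with the LRT without bull 5). GNRHR, DRD2 and GHRHR had log2 fold changes of -0.29 ± 0.43, 0.38 ± 0.25 and 0.26 ± 0.30 (SE). Of 7 measured genes of the activin, inhibin and follistatin system, which sets FSHB, 0 were called in either direction by the LRT or the quasi-likelihood test. FST, which codes for follistatin, was at 0.883 to 7.32 CPM in cows and 1.43 to 15.9 CPM in bulls, and ACVR2A, INHBB and ACVR2B had the highest levels of the list (24.9, 6.31 and 5.33 CPM). Of 10 secretory granule and processing genes, 0 were called by either test, and their summed level was 12375 to 16922 CPM in cows and 11776 to 17482 CPM in bulls.

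Some markers of other cells differed between the sexes in the pituitary libraries, where the summed levels had medians of 652 CPM for endothelium and stroma and 429 CPM for folliculostellate cells and at most 70.1 CPM for the other lists below. In the gland the LRT called 0.745% of all genes in either direction and 0.555% higher in bulls. Of 7 measured neural lobe markers 1, AVP, was called higher in bulls at 0.0631 to 0.273 CPM in cows and 0.403 to 1.23 in bulls. In cows AVP lay around the level of 3 reads (0.157 to 0.326 CPM by library size in the glands), so its call rests partly on counts below the floor. The sum of the neural lobe list was 47.4 to 155 CPM in cows and 56.7 to 147 in bulls. Of 10 skeletal muscle markers, MYH2, MYH7 and MYL2 were called higher in bulls. MYL2 was at 0.0631 to 0.684 CPM in cows, with a median of 0.118 CPM, so its call also rests partly on counts below the floor. The sum of the muscle list was 11.5 to 37.9 CPM in cows and 25.0 to 91.7 CPM in bulls, against a median of 193063 CPM in muscle. Of 7 markers of endothelium and stroma COL1A1 was called higher in bulls (not without bull 5, adjusted p = 0.0508), with sums of 443 to 649 CPM in cows, 654 to 766 in bulls 1 to 4 and 1352 in bull 5. No marker of leukocytes (6), folliculostellate cells (4), blood (5), liver (7) or fat (4) was called with all 10 glands. Without bull 5 the leukocyte gene PTPRC was called lower in bulls (log2 fold change -1.24, adjusted p = 0.0457, edgeR LRT), and the median of the leukocyte list went from -0.43 to -0.93. The only intermediate lobe marker measured, PCSK2, was not called (log2 fold change 0.97, adjusted p = 0.644). The quasi-likelihood test called none of the markers in these lists. The leukocyte sum was 23.0 to 34.5 CPM in cows and 11.4 to 47.2 in bulls, that of folliculostellate cells 332 to 493 and 333 to 563, that of liver 33.8 to 49.6 and 36.3 to 79.2, that of fat 7.57 to 13.7 and 9.56 to 13.0, and that of blood at most 0.848 CPM, with HBA at 0 in all 10 glands. The blood list was also low in the other tissues, with median sums of 1.10 CPM in liver, 1.19 in fat and 0.766 in muscle. It therefore cannot tell how much blood a sample held. The part of these cells in the levels of the hormone genes was not tested.

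Across the 4 tissues together, in the model with sex and tissue (M2), CGA was the only hormone gene called, with a log2 fold change of 1.20 ± 0.34 (SE) and an adjusted p of 0.0432 in the edgeR LRT, where 1.69% of all genes were called and 0.335% called higher in bulls. It did not pass with the quasi-likelihood test (adjusted p = 0.0820), without the liver of bull 3 (0.0552), or with the animal as a block in limma voom (0.293), and it passed in 3 of 10 fits that left out an animal. FSHB was next at 1.18 ± 0.37 (SE, adjusted p = 0.0656). In the test of whether the sex effect differs between tissues, 0 of 7 hormone genes were called, with or without the liver of bull 3 (0.335% of all genes), with adjusted p of 0.934 or more. By the LRT and by the quasi-likelihood test 0 of 7 had an unadjusted p under 0.05.

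In liver, fat and muscle no hormone gene was called between the sexes by the LRT, the quasi-likelihood test or DESeq2, where the LRT called 0.175%, 0.114% and 0.517% of all genes and called 0.0685%, 0.0456% and 0.137% higher in bulls. In liver 1 of 7 and 980 of all genes had an unadjusted p under 0.05, in fat 0 of 7 and 905, and in muscle 0 of 7 and 1445. Without the liver of bull 3, 3 of 7 (CGA, POMC and PRL) and 865 of all genes did, and no hormone gene was called. The liver fold change was positive in 7 of 7, from 0.35 (TSHB) to 1.72 (CGA), and from 0.29 (LHB) to 1.80 (CGA) without the liver of bull 3. The library of 1 cow decided the calls. PRL was at 8.88 to 32.1 CPM in the livers of the other cows, 182 in that of cow 4 and 33.8 to 311 in those of bulls. GH1 was at 0.727 to 4.24 CPM in the other cows, 31.5 in cow 4 and 5.48 to 36.1 in bulls. Without cow 4, GH1, PRL and CGA were called higher in the livers of bulls, with log2 fold changes of 2.88, 2.66 and 3.13 and adjusted p of 8.29e-04, 0.00177 and 0.0106 (edgeR LRT), and the number of all genes called rose from 23 to 187. With the livers of cow 4 and bull 3 both left out, a fit chosen after the data were seen, the same 3 genes were called, with log2 fold changes of 3.002, 2.80 and 3.19 and adjusted p of 6.85e-04, 0.00141 and 0.0178. The granin genes SCG2, CHGB and CHGA also had traces in liver, at means of 6.80, 1.38 and 1.14 CPM against 7326, 2282 and 1759 CPM in the gland. The source of the hormone reads in liver was not tested, so these calls are not shown to be expression by liver cells.

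Outside the gland, reads of the hormone genes were few but present in nearly all libraries. PRL had 1 to 1738 reads in the 30 libraries of liver, fat and muscle (median 605.5), and POMC had 37 to 756 reads (median 109.5) and was the only hormone gene with at least 3 reads in 30 of 30. GH1 and CGA had 0 to 452 and 0 to 97 reads and reached 3 reads in 29 libraries each. TSHB had 1 to 12 reads, FSHB 0 to 11 and LHB 0 to 4, with no LHB read in 18 libraries. In libraries with at least 3 reads, the level in the animal's own gland was 272 to 9883 times the level in the other tissue for GH1, 514 to 7534 times for PRL and 286 to 4540 times for POMC.

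The muscle of bull 3 differed from the other 29 libraries in this respect. It had 0 reads of GH1, CGA and FSHB, 1 of PRL and 1 of TSHB, while it had 72 reads of POMC and 3 of LHB. The other 9 muscle libraries had 229 to 1471 PRL reads and 14 to 167 GH1 reads. A count of 0 in this library leaves room for up to 3 reads.

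The mix of hormone reads outside the gland was set beside that of the same animal's gland, a comparison chosen after the values were seen. GH1 had a median of 11.1 reads per 100 PRL reads in the gland, 13.0 in liver, 15.1 in fat and 11.5 in the 9 muscle libraries with PRL reads above the floor. For CGA the medians were 3.14, 3.64, 4.83 and 3.36. For POMC they were 8.34, 15.7, 28.5 and 15.2, and the ratio was above that of the own gland in 8 of 10 livers, 9 of 10 fat samples and 7 of 9 muscles. On average the log2 ratio of POMC to PRL was higher than in the gland by 0.87 in liver, 1.68 in fat and 0.89 in muscle (SD 1.04, 1.26 and 1.18), and by 0.93 in the 9 livers without that of bull 3, where 7 were above their gland and the median was 22.6 POMC reads per 100 PRL reads. That of GH1 to PRL differed from the gland by 0.01, 0.09 and -0.17 in liver, fat and muscle, and by 0.05 in the 9 livers. Bull 5, whose gland had 87.3 POMC reads per 100 PRL reads, was below its gland in each tissue. Across animals, the ratio in a tissue and in the gland had r between 0.21 and 0.68 in 9 relations, of which none passed (permutation adjusted p of 0.104 or more; rho 0.30 to 0.77, adjusted p of 0.0684 or more). Without the liver of bull 3, r in liver lay between 0.42 and 0.68.

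**Figure D5:**
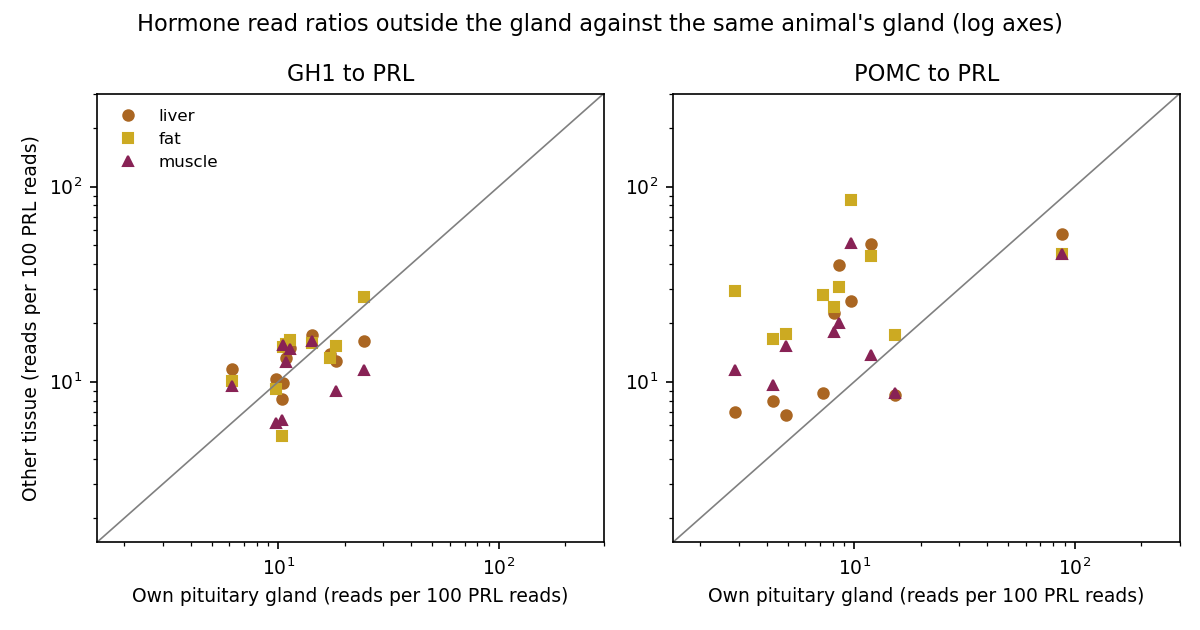
Reads of GH1 (left) and POMC (right) per 100 PRL reads in liver, fat and muscle (vertical axis) against the same animal's pituitary gland (horizontal axis), both on log axes, with 1 point per library with a GH1 or POMC read and at least 3 PRL reads. The grey line marks equal ratios. GH1 points scatter around the line, and most POMC points lie above it.

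The receptors through which these hormones act had their own distribution. GHR, the growth hormone receptor, was highest in liver (372 CPM on average), followed by muscle (194), fat (126) and pituitary gland (11.5 ± 2.54, SD, n = 10). PRLR, the prolactin receptor, was also highest in liver, at 51.7 CPM against 18.7 in the gland and at most 0.165 in fat and muscle. LHCGR, the receptor of luteinizing hormone, was at 30.3 CPM in fat, 2.23 in muscle and at most 0.0257 in gland and liver. TSHR was at 3.09 CPM in muscle and 2.86 in the gland, where bull 5 had 15.3 CPM and the others 0.702 to 3.48. FSHR had no read in gland, liver or muscle and was at 0.0221 CPM in fat. The melanocortin receptors MC1R, MC2R, MC4R and MC5R had their highest means in the gland, at 1.07, 0.0871, 0.0542 and 0.0256 CPM, of which the last 3 are under the level that 3 reads give. None of the 9 measured receptors was called between the sexes by the LRT in the gland or in liver, with or without the liver of bull 3.

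Of 6 genes that growth hormone is known to induce, 0 were called between the sexes in the gland or in liver by the LRT or the quasi-likelihood test on all libraries. In liver, IGF1, the insulin-like growth factor that carries much of the effect of growth hormone, had a log2 fold change of bulls to cows of 2.08 ± 0.59 (SE, adjusted p = 0.144), and IGFALS, which codes for its carrier subunit, of 1.18 ± 0.45 (SE, adjusted p = 0.396; edgeR LRT). Without the liver of bull 3 the LRT called 61 of 13148 genes, 35 of them higher in bulls. Among these were 2 of the 6, IGF1 (2.33, adjusted p = 0.0185) and CISH, a feedback inhibitor of cytokine signalling (1.12, adjusted p = 0.0490). In the same test IGFALS was at 1.34 (adjusted p = 0.251). The median over the list was 0.97 in liver with all 10 libraries, where that of all genes was 0.00. In the gland the highest of the list were IGFBP3, CISH and SOCS2 at 43.5, 37.5 and 33.3 CPM.

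Among 7640 genes with a mean of at least 10 CPM in the gland, the genes whose log2 levels ran most like each hormone gene over the 10 glands were named as a description. These were NDN and ERCC1 for GH1 (r = 0.97 and 0.96), B3GAT3 and TM4SF1 for PRL (0.95 and 0.94), and ADAMTSL2 and HPCAL1 for POMC (0.92 and 0.91). For the glycoprotein subunits they included RARRES1 for CGA (0.95) and TYRO3 for FSHB (0.93), and were DKKL1 and VKORC1 for LHB (0.95 and 0.94) and TMEM199 and RPL34 for TSHB (0.94 each). Without bull 5 these r lay between 0.83 and 0.97.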

How the data were processed

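The authors sequenced poly-A selected RNA as paired-end reads, and processed them with Trimmomatic, Bowtie2, TopHat2, SAMtools and HTSeq, per the submitters' processing notes, against bosTau7, per the study's methods. They deposited raw read counts per gene symbol, 1 table per library, without normalization. The strand and overlap settings of the counting are not given in the sources used here. A row without a gene name (0.114% to 2.76% of the gene reads) was left out, and 0 columns of samples outside the series were present.

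Sex, tissue and animal came from the labels, which carry ear tags: libraries with 1 tag are the same animal, and replicate numbers do not pair cows with bulls. Deviations from the group means correlated above 0.1 between pituitary gland and muscle in 9 of 10 animals and between liver and fat in 3. No 2 libraries had counts equal within sampling noise. Separate animals are the replicates, so the 40 libraries are not independent in the models over tissues. No molecular identifiers were used, so floors cover counting error only.

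From the deposited counts, edgeR 4.0.16 (TMM, glmFit, glmLRT, prior count 0.125) was run on genes that had a read in any library: sex within a tissue (M1), sex with tissue (M2), their interaction, and gland against the mean of the other tissues. Calls are Benjamini-Hochberg adjusted p under 0.05 over 13148 genes. Fold changes are bulls to cows unless said otherwise. Differences of log2 ratios were tested by exact permutation, and correlations of log2(CPM + 1) with 100000 permutations. The tests were tested on simulated data. Alternatives were the quasi-likelihood test, DESeq2 1.42.0, RLE factors, library sizes alone, library sizes without the hormone genes, filterByExpr, a block for the animal, and leaving out each animal or the liver of bull 3. A covariate for reads outside genes and a liver fit without both bull 3 and cow 4 were added after the data were seen. The hormone genes and all gene lists were chosen with earlier results of these data known. Named from each list are the genes called between the sexes in the gland and up to 3 with the highest mean there, for each hormone gene the 2 genes most like it by Pearson's r, and other names (POU1F1, TBX19, LHX3, PCSK2, FST, IGF1, IGFALS and neural lobe markers among them) were chosen after their values were seen. Some genes that this rule names are not reported here. Of the listed genes, SSTR3, SSTR5, THRB, ACVR1B, TGFBR3, VGF, MC3R, RAX, COL25A1, PAX7, HBA1, ADIPOQ and PLIN4 were not matched by symbol and were not used here.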

Additional observations from a re-analysis of the deposited data

Results flagged for a closer look

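Each group of 5 animals was checked for a value far from the other 4, by the gap to its neighbour over the whole range, in 68 groups of hormone gene levels, ratios and shares. In this check 13 groups were set apart. The limit used gives about 1 in 20 groups by chance only for independent groups of normally distributed values. These groups were not independent, as several of those set apart come from the liver library of cow 4. In the LHB groups set apart only 1 library had any read, so the check was bound to pick it. Whether 13 exceeds chance therefore cannot be told from this check.

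In the livers of cows, cow 4 stood above the others in 5 hormone genes. It had 31.5 CPM of GH1 (the others 0.727 to 4.24), 182 of PRL (8.88 to 32.1), 6.18 of CGA (0.410 to 1.15), 0.983 of TSHB (0.0808 to 0.204) and 0.281 of LHB (0 in the others, 2 reads in cow 4). The fat of cow 4 had 0.0580 CPM of LHB, which is 1 read, and the fat of cow 5 had 0.944 CPM of TSHB against 0.290 to 0.360. In the livers of bulls, bull 2 had 15.9 CPM of CGA against 0.566 to 4.67.

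In the fat of bulls, bull 5 had 34.9 CPM of GH1 against 3.75 to 10.3 and 58.4 CPM of POMC against 6.82 to 15.4. The muscle of bull 3 had 0.793 CPM of LHB, from 3 reads, and those of the other bulls had 0. This library had 72 reads of POMC and at most 1 read of each of GH1, PRL, CGA, FSHB and TSHB.

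In the pituitary gland, the log2 ratio of LHB to CGA was -3.85 in cow 2 against -5.45 to -5.05 in the other cows, and the log2 ratio of GH1 to PRL was -2.81 in cow 4 against -3.36 to -3.20. Levels of bull 5 in the gland were not set apart by this measure in any single gene.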

How the results depend on the processing

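Of the 7 hormone genes, the number called between the sexes in the gland was 1, but 0 with the quasi-likelihood test and 0 with reads outside genes as a covariate, and 0 to 2 without single animals. In M2 it was 1, but 0 with the quasi-likelihood test, without the liver of bull 3 and with the replicate block for the animal (limma voom), and 0 to 3 without single animals, 3 each without bull 5 and without cow 4. In liver, fat and muscle it was 0, and 0 to 3 without single animals, and 3 in liver without bull 3 and cow 4. For the interaction it stayed 0 and for the gland against other tissues 7 under every alternative, the animal block included. The number of all genes called between the sexes in the gland went from 98 to 12 with the quasi-likelihood test, 56 with library sizes alone and 54 to 231 without single animals, and in M2 from 222 to 77, 717 and 57 to 714, and to 8 with the animal block. In the interaction 44 genes became 0 with the quasi-likelihood test (922 with an unadjusted p under 0.05), 39 with DESeq2 and 56 with the animal block. In liver the quasi-likelihood test called 1 gene in place of 23 and leaving out the liver of bull 3 gave 61 (154 without cow 4 as well), in fat 3 in place of 15 and in muscle 7 in place of 68. With library sizes alone the mean level in the glands of cows moved to 3575 CPM for CGA and 792 CPM for TSHB, genes called in the gland split into 32 higher and 24 lower in bulls in place of 73 and 25, and the median of all genes moved by -0.13 between the sexes in the gland.

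The fold change of TSHB turned to -0.0904 in the gland and -0.0923 in M2 with library sizes alone, and to -0.53 with the covariate, and lay between -0.0698 and 0.39 in the gland and between -0.0688 and 0.26 in M2 without single animals. That of PRL turned to -0.23 with the covariate. With medians, the log2 ratio of LHB to CGA turned to 0.18 and that of TSHB to CGA became -1.66 with an adjusted p of 0.238. With library sizes alone 0 pairs of hormone genes correlated in place of 2, and r of POMC turned to -0.0717 with CGA, -0.0330 with FSHB and -0.0790 with LHB. The cause was not tested, except that leaving out an animal lowers the number of samples.

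The number of animals, 5 per sex, limits all comparisons. Counts under 3 reads limit LHB, FSHB and TSHB outside the gland.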
